A study of Mus musculus with 6 samples.

Results

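Kctd13, Rasgrp3, Trim59 and Ranbp3l are 4 of the 43432 genes in the count tables of a study of mouse spinal cord after trauma. They were chosen by their counts: edgeR called all 4 lower after contusion in these same 6 libraries, so that difference is described here and its p-values support nothing. Bulk RNA was measured in cervical spinal cord of wildtype C57BL/6 mice. In 3 mice (SCI) one side of the cord was struck at the level of C5 by an Infinite Horizon impactor set to 50 kdyn, and tissue was taken 4 h later. In 3 other mice (sham) the bone over the cord was removed by laminectomy and the cord was not struck. The collection time of sham tissue, age and sex are not given in the labels used here. Libraries came from the 3′ end of poly(A) transcripts (Lexogen QuantSeq Forward), so a count does not scale with transcript length, and levels are given as CPM, counts scaled to library size by edgeR's TMM method.

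The 4 proteins act in separate pathways. KCTD13 is a substrate adaptor of the CUL3 ubiquitin ligase, which tags proteins such as the small GTPase RhoA for breakdown, and its human counterpart lies in a copy number region linked to autism and schizophrenia. RASGRP3 is a guanine nucleotide exchange factor that loads Ras and Rap1 with GTP when diacylglycerol is formed, and is known from B lymphocytes and vascular endothelium. TRIM59 is a membrane-anchored RING finger ubiquitin ligase that binds the adaptor ECSIT and dampens signalling to NF-kB and interferon regulatory factors. RANBP3L binds the GTPase Ran and helps to move the BMP-activated SMAD proteins out of the nucleus. None of these roles was measured here.

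The promoters of the 4 genes are shown because the transcripts were lower together, and they fell into 2 kinds. Each window is the 300 bases from 250 before the start of the RefSeq transcript to 50 after it (GRCm38.p6), written 5′ to 3′ on the strand of the gene. Capitals mark matches, on either strand, to the 7 motifs searched.
Kctd13 chr7:126928629-126928928 (+ strand): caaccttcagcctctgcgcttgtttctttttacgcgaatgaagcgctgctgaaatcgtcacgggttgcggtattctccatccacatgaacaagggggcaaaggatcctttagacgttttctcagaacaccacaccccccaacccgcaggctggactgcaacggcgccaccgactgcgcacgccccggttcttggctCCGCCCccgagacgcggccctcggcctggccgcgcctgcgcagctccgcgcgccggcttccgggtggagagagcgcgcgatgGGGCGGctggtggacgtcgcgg
Rasgrp3 chr17:75435655-75435954 (+ strand): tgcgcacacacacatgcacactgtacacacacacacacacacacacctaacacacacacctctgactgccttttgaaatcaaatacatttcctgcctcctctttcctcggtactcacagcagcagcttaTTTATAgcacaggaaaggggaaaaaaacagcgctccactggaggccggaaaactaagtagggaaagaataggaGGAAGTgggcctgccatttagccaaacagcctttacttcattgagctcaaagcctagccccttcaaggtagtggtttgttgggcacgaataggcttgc
Trim59 chr3:69044693-69044992 (- strand): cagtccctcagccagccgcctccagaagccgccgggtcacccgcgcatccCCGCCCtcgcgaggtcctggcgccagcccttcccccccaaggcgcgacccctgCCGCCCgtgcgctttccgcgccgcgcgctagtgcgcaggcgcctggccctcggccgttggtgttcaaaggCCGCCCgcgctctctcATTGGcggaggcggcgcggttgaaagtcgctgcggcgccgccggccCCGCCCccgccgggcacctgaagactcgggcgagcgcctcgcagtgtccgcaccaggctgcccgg
Ranbp3l chr15:8967699-8967998 (+ strand): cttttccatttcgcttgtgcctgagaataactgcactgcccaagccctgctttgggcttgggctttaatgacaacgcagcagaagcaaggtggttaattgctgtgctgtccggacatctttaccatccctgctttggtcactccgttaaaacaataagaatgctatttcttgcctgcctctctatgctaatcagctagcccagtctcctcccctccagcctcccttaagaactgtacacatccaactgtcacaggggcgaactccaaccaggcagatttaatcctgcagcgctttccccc
The Kctd13 and Trim59 windows were rich in CpG, with 35 and 44 CpG dinucleotides and a GC content of 65.3% and 76.7%. Of the 32851 promoters in the RefSeq table, 93.0% held fewer CpG than that of Kctd13 and 97.8% fewer than that of Trim59. The Rasgrp3 and Ranbp3l windows held 5 and 6 CpG, below the median of 7, with a GC content of 48.3% and 50.3%. RefSeq lists a second Rasgrp3 start, whose window held 9 CpG.

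The GC box GGGCGG occurred 2 times in the Kctd13 window and 4 times in that of Trim59, and 35.7% of all promoters held at least 1. The CCAAT box CCAAT occurred 1 time in the Trim59 window, on the opposite strand, and 37.4% of promoters held one. In the Rasgrp3 window the ETS core GGAAGT (23.8% of promoters) and the TATA box TATAAA, on the opposite strand (13.6%), each occurred 1 time. The E-box CACGTG (7.15% of promoters), the AP-1 site TGANTCA (7.81%) and the CRE TGACGTCA (1.79%) had no match in any of the 4 windows. The Ranbp3l window held none of the 7 motifs. No 2 matches overlapped. These letters were matched by text alone, which describes the windows and is not evidence of binding.

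Gene length and 3′ ends divided the 4 genes into the same pairs. Ranbp3l and Rasgrp3 span 99387 and 93159 bases, longer than 84.6% and 83.5% of tested genes, and have up to 16 and 18 exons per transcript. Kctd13 and Trim59 span 16753 and 9468 bases, against a median of 24495 over tested genes. The longest annotated 3′ untranslated regions (UTRs) were 2328 bases in Ranbp3l, 2203 in Rasgrp3, 1506 in Trim59 and 510 in Kctd13. The pentamer ATTTA, the core of AU-rich elements that can shorten the life of an mRNA, occurred 10 times in that of Ranbp3l and 8 times in that of Rasgrp3. Per kilobase this was 4.30 and 3.63, above 92.8% and 88.8% of tested genes with an annotated 3′ UTR. Kctd13 and Trim59 each had 1 ATTTA, or 1.96 and 0.664 per kilobase, where the median was 1.241.

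The libraries held between 5364263 and 8229961 counts in SCI and between 3407176 and 11543633 in sham, and a count of 3 corresponded to 0.260 to 0.880 CPM. Markers of neurons, oligodendrocytes and astrocytes were abundant in every library, as the spinal cord label says. Liver transcripts were present as well. The summed level of 17 hepatocyte markers was 57968 to 63015 CPM in SCI and 45420 to 105432 CPM in sham, with the highest value in sham 2. Erythroid markers summed to 1584 to 4282 CPM in SCI and 611 to 841 CPM in sham. The part of these transcripts in the results was not tested, and values without sham 2 and with a covariate for the hepatocyte markers are given beside the members.

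All 4 genes passed the filter on low counts that left 13560 genes for edgeR's quasi-likelihood test. Of these, 6 genes or 0.0442% were called lower in SCI at an adjusted p under 0.05, and 4 of those 6 are the genes described here, by choice. Another 120 genes or 0.885% were called higher. At an unadjusted p under 0.05 there were 1001 genes, 7.38% of those tested, and the counts at that level given for gene lists stand beside this share. Groups did not overlap, with SCI lower, in 5.94% of all genes tested, and with SCI higher in 7.73%. The other 2 lower genes were the microglial ADP receptor gene P2ry12 and the transcription factor gene Zic1. Because the calls chose the genes, nothing is read from their number.

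Ranbp3l had the most negative log2 fold change of all 13560 genes. Its counts were 8, 4 and 2 in SCI mice 1 to 3, against 50, 54 and 17 in sham mice 1 to 3. As TMM-scaled levels these were 0.967, 0.577 and 0.396 CPM in SCI and 6.56, 5.1995 and 4.61 CPM in sham. Every SCI library was far below every sham library, the highest SCI level being 20.98% of the lowest sham level. The level averaged 0.647 ± 0.292 CPM in SCI and 5.46 ± 1.00 CPM in sham (SD, n = 3 mice each), a log2 fold change of -2.99 ± 0.45 (SE). Over the summed libraries, 14 counts stood against 121, a ratio of SCI to sham per total counts of 0.130 with an exact 95% interval of 0.0689 to 0.226. That interval covers counting error only and leaves out variation between mice and the choice of the gene as lower in these same counts. Reads copied from 1 molecule cannot be told from others in these counts, so it may be too narrow even for counting error. The SCI 3 library held fewer than 3 counts, so its level rests on a value near the detection limit.

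Trim59 was the least even of the 4 genes. It had 40, 9 and 11 counts in SCI mice and 58, 107 and 55 counts in sham mice, or 4.84, 1.30 and 2.18 CPM in SCI against 7.62, 10.3 and 14.9 CPM in sham. The groups did not overlap, but SCI 1 and sham 1 lay close to each other, with the highest SCI level at 63.5% of the lowest sham level. The spread within SCI was 3.72-fold, and within sham 1.96-fold. Its mean was 2.77 ± 1.84 CPM in SCI and 10.9 ± 3.69 CPM in sham (SD, n = 3 mice each), with a log2 fold change of -1.90 ± 0.41 (SE).

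Kctd13 was more even, with 25, 23 and 12 counts in SCI and 66, 86 and 43 in sham. These counts correspond to 3.02, 3.32 and 2.38 CPM in SCI against 8.67, 8.28 and 11.7 CPM in sham, and the groups lay well apart. The SCI mean of 2.91 ± 0.481 CPM was 30.5% of the sham mean of 9.53 ± 1.85 CPM (SD, n = 3 mice each), and the log2 fold change was -1.67 ± 0.31 (SE).

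Rasgrp3, the most highly counted of the 4, had 81, 48 and 43 counts in SCI and 145, 208 and 71 in sham. Its levels were 9.79, 6.93 and 8.52 CPM in SCI against 19.0, 20.03 and 19.2 CPM in sham. The 3 sham libraries were nearly identical, with a coefficient of variation of 2.68%, while that of the SCI libraries was 17.0%. The mean was 8.42 ± 1.43 CPM in SCI and 19.4 ± 0.521 CPM in sham (SD, n = 3 mice each), a log2 fold change of -1.20 ± 0.22 (SE). In bulk tissue, fewer cells of a type and less RNA per cell cannot be told apart for any of these genes.

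**Figure D1:**
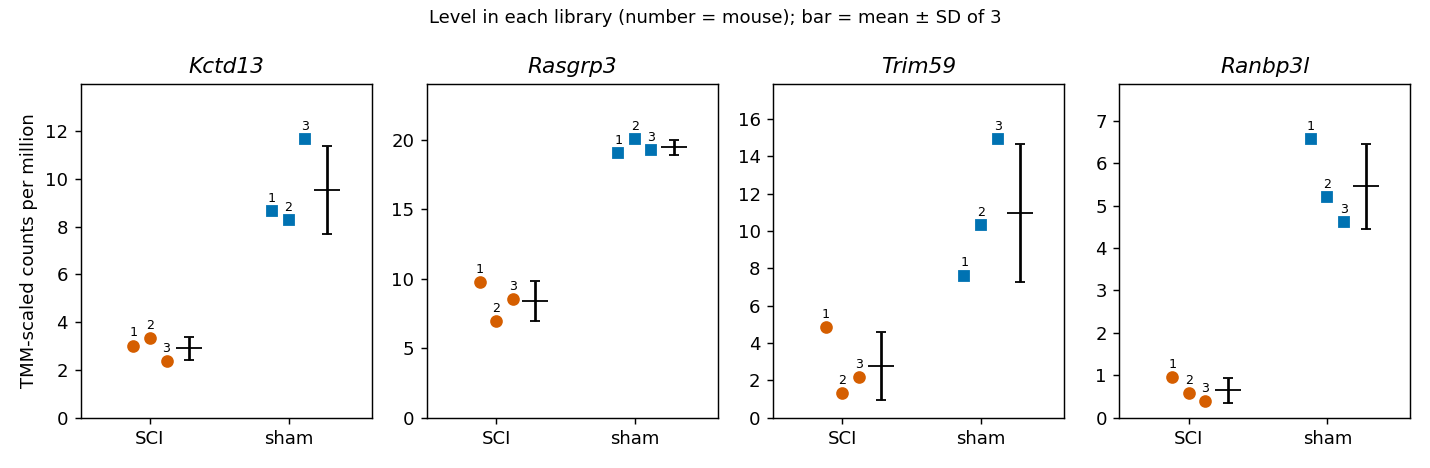
Level of each gene in each library, in TMM-scaled CPM from 0, with SCI mice as circles and sham mice as squares, numbered by mouse, and the mean ± SD of 3 mice as a bar. All SCI points lie below all sham points in each panel, and the narrowest gap is in Trim59, between 4.84 CPM in SCI 1 and 7.62 CPM in sham 1.

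By log2 fold change alone the 4 genes were not equally extreme. Ranbp3l ranked first from the bottom, Trim59 at 10, Kctd13 at 18 and Rasgrp3 at 71 of 13560. Of the genes not called, 7 had a more negative log2 fold change than Trim59, 14 than Kctd13 and 66 than Rasgrp3. At the threshold, Zic1 lay just inside, with an edgeR adjusted p of 0.0489 and a log2 fold change of -0.98 ± 0.22. The Zic1 call was lost without any 1 of SCI 1, SCI 2, SCI 3, sham 1 or sham 3 (edgeR adjusted p between 0.0731 and 0.267). It was also lost with total counts (edgeR adjusted p = 0.150), limma voom (0.0626) or the replicate number as a block (edgeR, 0.244). Just outside were Fbxo32, a muscle ubiquitin ligase subunit, the mitochondrial glutamate carrier gene Slc25a22 and the mitochondrial processing peptidase gene Pmpcb. Their edgeR adjusted p was 0.0542, 0.0604 and 0.0778 and their log2 fold changes were -0.82, -1.71 and -1.77. Trim59 was the nearest of the 4 genes to the threshold (adjusted p = 0.0406), Rasgrp3 and Kctd13 had an adjusted p of 0.0117 and 0.0114, and Ranbp3l one of 0.00243, all by edgeR.

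**Figure D2:**
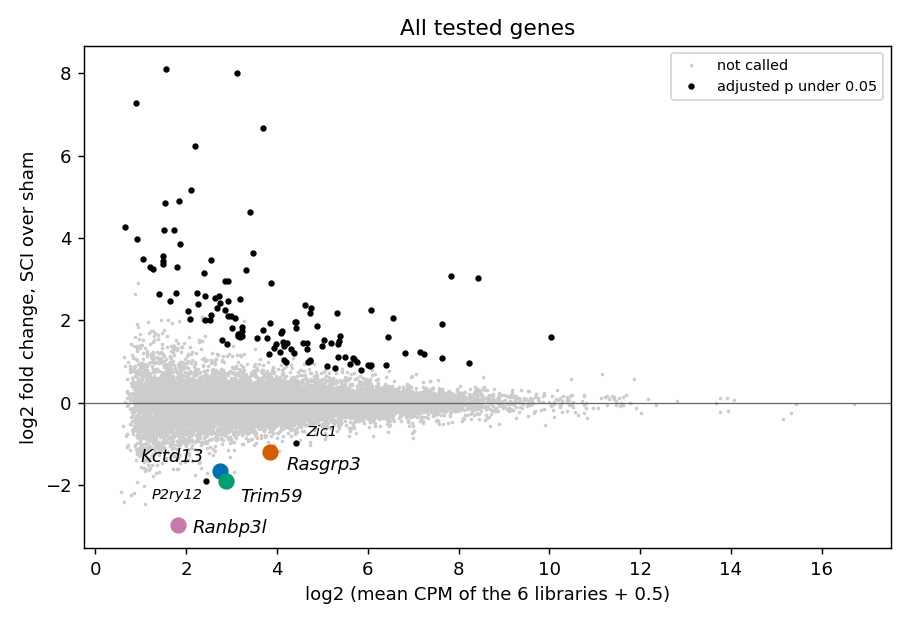
Log2 fold change of SCI over sham against the log2 mean level (CPM + 0.5) for the 13560 tested genes, with called genes in black and the 4 genes in colour. The 4 genes lie at the lower edge with P2ry12 and Zic1, and Ranbp3l, at -2.99, is the lowest point of all.

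All 4 genes were lower in SCI under every processing tried, while size and calls varied. They were chosen as lower in these libraries and their groups did not overlap. The direction was therefore close to fixed in advance and supports nothing. Over the 15 fits made, the log2 fold change lay between -3.42 and -2.79 for Ranbp3l, between -2.65 and -1.55 for Trim59, between -1.77 and -1.52 for Kctd13 and between -1.34 and -1.08 for Rasgrp3. Ranbp3l was called in 15 of the 15 fits, Rasgrp3 in 12, Kctd13 in 11 and Trim59 in 8. Without sham 2 the log2 fold changes were -3.04, -1.93, -1.77 and -1.19 in the same order of genes as in the ranges, and with the hepatocyte covariate -2.97, -1.94, -1.73 and -1.19. All 4 were called in both of these fits.

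Several calls were lost when 1 library was left out. Such a fit also has fewer libraries in a group, and the reason for each loss was not tested. Kctd13 was not called without SCI 1 (adjusted p = 0.0646), SCI 3 (0.0567) or sham 1 (0.0544), where the edgeR log2 fold changes were -1.696, -1.57 and -1.75. Rasgrp3 was not called without SCI 2 (adjusted p = 0.110) or sham 1 (0.0663), with edgeR log2 fold changes of -1.08 and -1.23. For Trim59 the call was lost without SCI 2 (adjusted p = 0.202), SCI 3 (0.187), sham 1 (0.0555) or sham 3 (0.0573). The edgeR log2 fold changes of Trim59 there were -1.55, -1.77, -2.12 and -1.65, and it was -2.65 without SCI 1, the library in which Trim59 was least reduced.

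**Figure D3:**
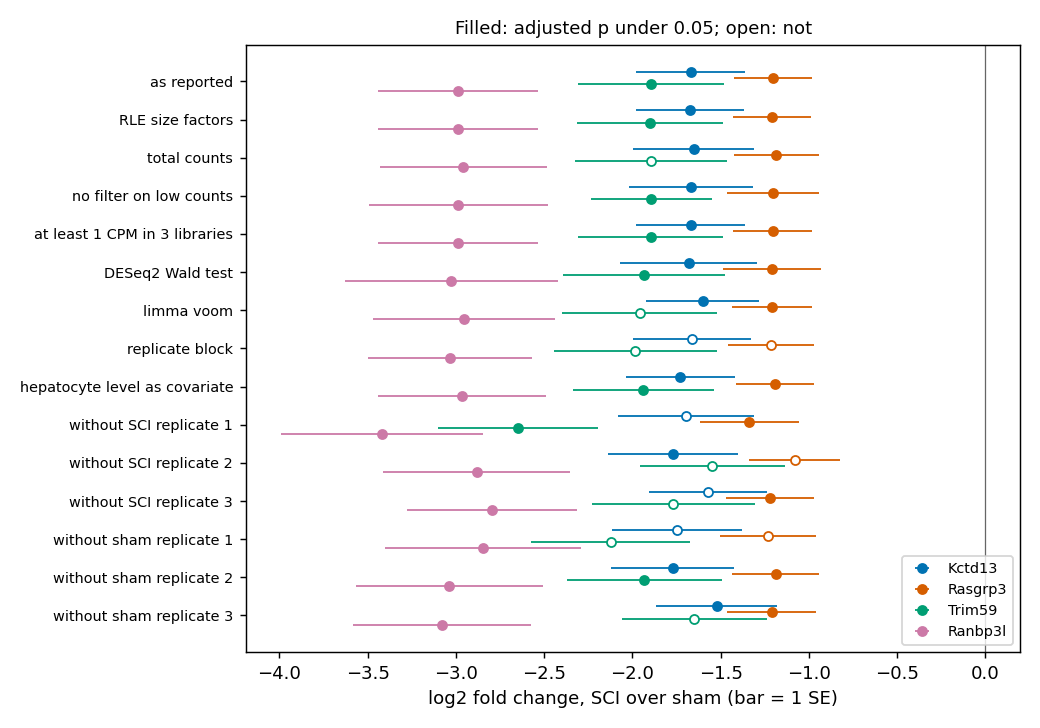
Log2 fold change of SCI over sham with 1 SE for each gene under the fit as reported and 14 alternatives, filled where the adjusted p was under 0.05. All 60 points are below 0, which the choice of the genes made close to fixed, and only Ranbp3l is filled in every row.

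No tested partner or relative of KCTD13 was called lower by edgeR. Of 22 tested genes of the CUL3, KCTD13 and RhoA axis, 1 was higher and 0 lower by edgeR (2 at an unadjusted p under 0.05, and 1 each called by DESeq2 and limma voom), with a median log2 fold change of 0.04, where the median over all 13560 genes was -0.0025 and 0.929% were called in either direction. The higher gene was Rhoc, a small GTPase gene, with 36.6, 37.0 and 32.5 CPM in SCI against 16.02, 15.1 and 11.7 CPM in sham. Rhoc rose by 1.29 ± 0.20 on the log2 scale (SE, edgeR adjusted p = 0.00267), and it was called in every fit made. The closest paralogs of Kctd13, which are also CUL3 adaptors, were not called. Kctd10 was at 18.3, 17.5 and 22.6 CPM in SCI against 15.0, 8.67 and 15.2 CPM in sham (log2 fold change 0.61 ± 0.25, edgeR adjusted p = 0.556). Tnfaip1 was at 51.6 ± 2.05 CPM in SCI and 41.5 ± 1.74 CPM in sham (SD, n = 3 mice each; log2 fold change 0.31 ± 0.17, edgeR adjusted p = 0.740). Both paralogs had all SCI libraries above all sham libraries. Rock1, a kinase activated by RhoA, was at 185.8 ± 9.44 CPM in SCI and 213.9 ± 10.4 CPM in sham, which was not called (edgeR adjusted p = 0.895).

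Among 16 tested members of the wider KCTD family, Kctd10 included, 0 were called by edgeR, DESeq2 or voom and 2 had an unadjusted edgeR p under 0.05. The median log2 fold change was 0.13. The lowest was Kctd4, at 10.2, 10.8 and 5.95 CPM in SCI against 18.5, 14.1 and 20.9 CPM in sham. Its log2 fold change was -0.95 ± 0.26 (SE, edgeR adjusted p = 0.182), and it was called with no filter on low counts (adjusted p = 0.0284), with the hepatocyte covariate (0.0499) and without sham 2 (0.04796). The abundant Kctd2 was at 42.8 ± 3.37 CPM in SCI and 36.0 ± 3.34 CPM in sham and was not called (edgeR adjusted p = 0.854).

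The pathway around RASGRP3 showed no called gene. By edgeR 0 of 33 tested Ras and Rap exchange factors, GTPases and GTPase-activating proteins passed, with a median log2 fold change of 0.07, and 0 of 21 diacylglycerol signalling genes, with a median of 0.05. At an unadjusted p under 0.05 there were 2 and 4, and DESeq2 and voom called 0 in both lists. The paralogs of Rasgrp3 had no call. Rasgrp2, which acts on Rap1, was at 23.3, 28.2 and 19.2 CPM in SCI against 22.5, 18.97 and 26.03 CPM in sham, with overlapping groups (log2 fold change 0.09 ± 0.21). Rasgrp1, known from T lymphocytes, was at 1.46 ± 0.640 CPM in SCI and 1.55 ± 0.498 CPM in sham, and Rasgrp4 had 1, 4 and 0 counts in SCI and 1, 1 and 2 in sham, too few to be tested. Rapgef3, the cAMP-regulated exchange factor EPAC for Rap1, had the smallest p of its list. It was at 22.5, 22.5 and 23.99 CPM in SCI against 12.999, 6.84 and 15.2 CPM in sham (log2 fold change 1.02 ± 0.26, edgeR adjusted p = 0.129), and it was called without sham 3 (adjusted p = 0.0206), with no filter (0.00434) and with the hepatocyte covariate (0.03198). Rap2b, a small GTPase of the Rap group, had a log2 fold change of 0.58 ± 0.25 and was not called by edgeR (adjusted p = 0.602). Among diacylglycerol targets, the protein kinase C gene Prkcd was at 9.67, 9.38 and 7.33 CPM in SCI against 5.38, 3.95 and 4.07 CPM in sham (log2 fold change 0.98 ± 0.29, edgeR adjusted p = 0.236). The diacylglycerol kinase gene Dgkg, whose product removes diacylglycerol, was at 17.6 ± 0.243 CPM in SCI and 24.9 ± 5.48 CPM in sham (edgeR adjusted p = 0.631).

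Around TRIM59 there was likewise no call by edgeR, in 36 tested genes of the TRIM family (median log2 fold change 0.04) and in 18 genes of ECSIT and Toll-like receptor signalling (median 0.21). DESeq2 and voom called 0 as well, and 0 and 2 had an unadjusted edgeR p under 0.05. Trim13, a membrane-anchored relative of Trim59, had 9, 3 and 4 counts in SCI and 10, 17 and 8 in sham and was too low to be tested. Trim39 and Trim56 had the smallest p of their family, with log2 fold changes of 0.44 ± 0.23 and 0.37 ± 0.20 that were not called (edgeR adjusted p = 0.727 and 0.753). The NF-kB subunit genes Rela and Nfkb1 had the smallest p of the ECSIT list. Rela was at 37.4, 41.6 and 44.0 CPM in SCI against 31.6, 26.2 and 25.2 CPM in sham, with groups that did not overlap (log2 fold change 0.56 ± 0.18, edgeR adjusted p = 0.335). Nfkb1 was at 6.41, 8.37 and 4.76 CPM in SCI against 2.49, 4.43 and 1.90 CPM in sham (log2 fold change 1.07 ± 0.37, edgeR adjusted p = 0.397).

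For RANBP3L, 0 of 24 tested genes of the Ran cycle and nuclear export and 0 of 24 genes of the BMP and SMAD pathway were called by edgeR, with medians of -0.01 and -0.09. At an unadjusted p under 0.05 there were 0 and 2, voom called 0 in both, and DESeq2 called 0 and 1. Its close relative Ranbp3, which also serves SMAD export, was at 36.3, 37.8 and 35.9 CPM in SCI against 37.2, 38.3 and 29.0 CPM in sham (log2 fold change 0.06 ± 0.18). Rangap1, the GTPase-activating protein of Ran, and Ranbp10 had log2 fold changes of 0.32 ± 0.20 and -0.40 ± 0.25, neither called by edgeR (adjusted p = 0.819 and 0.815). Id2, an inhibitor of helix-loop-helix factors that BMP signalling induces, was at 447, 429 and 473 CPM in SCI against 295.8, 287 and 294 CPM in sham, with groups far apart. The summed level of the BMP and SMAD list was 804 to 821 CPM in SCI and 660 to 697 CPM in sham, with Id2 its most abundant member. Of the 24 tested genes of that list, 17 had a negative log2 fold change, as had 50.3% of all tested genes. The log2 fold change of Id2 was 0.62 ± 0.20 (SE, edgeR adjusted p = 0.303), and it was called by DESeq2's Wald test (adjusted p = 0.00691) and with the hepatocyte covariate (0.0248). Chrd, the secreted BMP antagonist chordin, was at 1.45, 1.88 and 0.595 CPM in SCI against 2.10, 4.33 and 2.71 CPM in sham (log2 fold change -1.19 ± 0.50, edgeR adjusted p = 0.574).

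**Figure D4:**
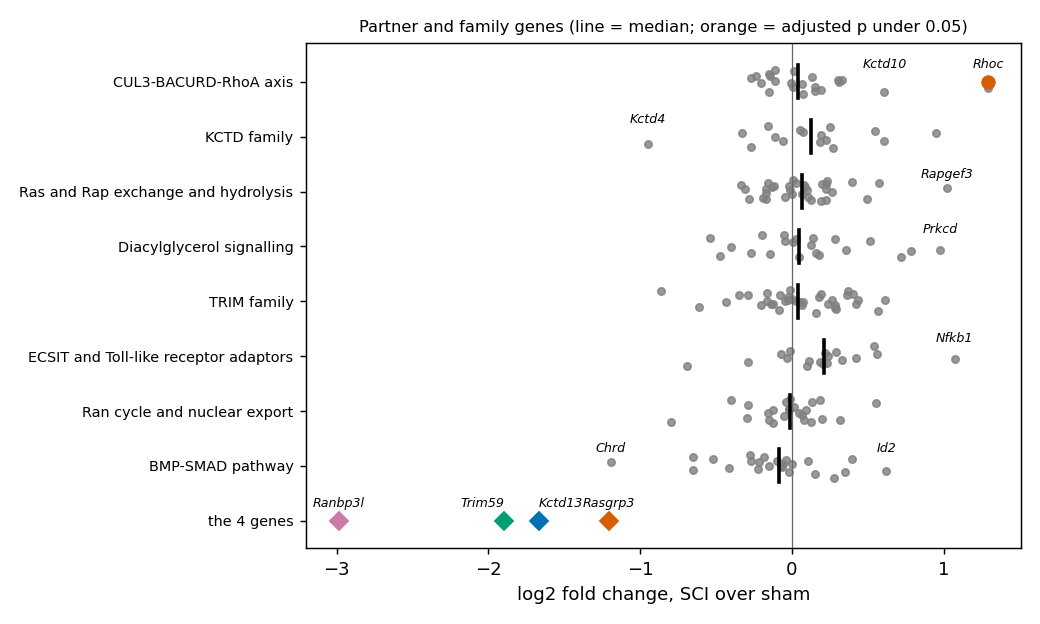
Log2 fold change of SCI over sham for the tested genes of 8 partner and family lists, with the median of each list as a line, called genes in orange and the 4 genes as diamonds in the bottom row. Medians lie between -0.09 and 0.21, Rhoc at 1.29 is the one called gene, and the lowest list member is Chrd at -1.19.

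The nearest tested genes on each side of the members were not called either. Genes that did not pass the filter were skipped, so these need not be the next genes on the chromosome. Kctd13 lies on chromosome 7 from 126928879 to 126945631 on the plus strand (ENSMUSG00000030685; GRCm38). The neighbours Tmem219 and Sez6l2 lie 5962 and 4932 bases away, with log2 fold changes of 0.15 ± 0.24 and 0.06 ± 0.20. The end of Kctd13 overlaps Asphd1 on the opposite strand by 65 bases and the transcript Gm21984 on the same strand, with which it shares 199 exonic bases. Gm21984 had 191, 86 and 145 counts in SCI and 170, 149 and 116 in sham, and Asphd1 had 39, 35 and 33 counts in SCI and 49, 13 and 14 in sham. Strand cannot separate reads in the bases shared with Gm21984, because both genes lie on the same strand. For the bases shared with Asphd1 the strand setting of the counting matters, and it is not given in the sources used here. Reads in the shared bases therefore cannot be assigned with certainty. Neither Gm21984 nor Asphd1 was lower in all SCI libraries. Gm44735 also overlaps Kctd13 on the same strand, by 1752 bases of which 0 are exonic in both, but was not in the count tables.

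Trim59 lies on chromosome 3 from 69035288 to 69044755 on the minus strand (ENSMUSG00000034317). Its 3′ end faces that of Smc4, a condensin subunit gene on the plus strand, across 665 bases. Smc4 was at 28.3, 27.7 and 27.8 CPM in SCI against 37.8, 38.1 and 36.3 CPM in sham. The groups were tight and did not overlap, but the log2 fold change of -0.42 ± 0.17 was not called (edgeR adjusted p = 0.555). Kpna4, on the other side at 22394 bases, had a log2 fold change of -0.04 ± 0.18.

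Rasgrp3 lies on chromosome 17 from 75435896 to 75529054 (plus strand, ENSMUSG00000071042), between Ltbp1 at 43384 bases and Fam98a at 8032 bases. Their log2 fold changes were -0.60 ± 0.40 and 0.13 ± 0.21 (edgeR adjusted p = 0.832 and 0.961). Ranbp3l lies on chromosome 15 from 8967949 to 9067335 (plus strand, ENSMUSG00000048424), between the astrocyte glutamate transporter gene Slc1a3 at 257185 bases and Nadk2 at 3925 bases. Slc1a3 had a log2 fold change of 0.13 ± 0.19 and Nadk2 one of -0.44 ± 0.28 (edgeR adjusted p = 0.947 and 0.824).

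The levels were also set beside markers of the cells that could carry these transcripts. The summed level of 19 microglia markers was 507 to 615 CPM in SCI and 501 to 595 CPM in sham. For 17 endothelial markers it was 578 to 643 CPM in SCI and 489.9 to 703 CPM in sham, and for 16 neuron markers 5296 to 5413 CPM in SCI and 4677 to 6788 CPM in sham. For 15 astrocyte markers it was 4018 to 4182 CPM in SCI and 3285 to 4395 CPM in sham, and for 8 B cell markers 23.0 to 27.1 CPM in SCI and 20.9 to 28.2 CPM in sham. In each of these 5 lists the ranges overlapped, and no listed marker was at 0 in all libraries. The B cell sum rested mostly on Ighm, and 1 of the 8 passed the filter.

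Single markers moved within these lists. Of 18 tested microglia markers, 1 was called lower (P2ry12), none was called higher, and 13 had a negative log2 fold change, with a median of -0.22. Over all tested genes, 50.3% had a negative log2 fold change. At an unadjusted edgeR p under 0.05 there were 6 microglia markers, of which 5 were lower in SCI. Every SCI library was below every sham library in 5 of the 18, and in 5.94% of all tested genes. The most negative was Gpr34, a microglial receptor gene named here after its values were seen, at 1.09, 0.144 and 0 CPM in SCI against 3.02, 1.73 and 1.90 CPM in sham (log2 fold change -2.20 ± 0.73, edgeR adjusted p = 0.358). P2ry12 was at 1.45, 3.03 and 1.59 CPM in SCI against 8.01, 6.55 and 8.68 CPM in sham, and it was not called without SCI 1 (edgeR adjusted p = 0.119), SCI 3 (0.0758) or sham 1 (0.0940). Of 17 endothelial markers, 1 was called higher, Ly6a (log2 fold change 1.01 ± 0.22, edgeR adjusted p = 0.0460), and the median was -0.04, with 4 at an unadjusted p under 0.05, of which 1 was lower. The Ly6a call was lost without any 1 of SCI 2, SCI 3, sham 1 or sham 2, with edgeR adjusted p between 0.0843 and 0.325. It was also lost with total counts (edgeR adjusted p = 0.0829), limma voom (0.0779) or the replicate number as a block (edgeR, 0.226). Neurons and astrocytes had 0 of 16 and 0 of 15 markers called by edgeR, with medians of -0.14 and 0.13, and 0 in both at an unadjusted p under 0.05 or by DESeq2 or voom. Of the other lists, 5 of 5 tested erythroid markers, the chemokine gene Pf4 of the monocyte and border macrophage list (1 of 6) and the transcription factor gene Egr2 of the Schwann cell list (1 of 7) were higher by edgeR. Without sham 1 neither Pf4 nor Egr2 was called (edgeR adjusted p = 0.0540 and 0.0581), and Egr2 was not called without SCI 1 (0.0502). Called by edgeR, DESeq2 or voom were 0 of 13 oligodendrocyte, 0 of 11 meningeal fibroblast, 0 of 7 neutrophil and 0 of 17 hepatocyte markers. At an unadjusted edgeR p under 0.05 there were 2, 3, 5 and 1 in the same order. Of these, 2, 3, 0 and 1 were lower in SCI. Of the 11 meningeal fibroblast markers, 9 had a negative log2 fold change, with a median of -0.25. In 3 of the 11, every SCI library was below every sham library. The shares over all tested genes given with the microglia markers stand beside these counts too. No call was made either for 8 oligodendrocyte precursor, 5 ependymal and 10 pericyte markers or the 1 tested B cell marker. These had 0 at an unadjusted p under 0.05. The share of these cell types in the lower levels of the 4 genes was not tested.

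Divided by the summed level of each of the 15 cell type lists in the same library, each of the 4 genes was lower in every SCI library than in any sham library. The genes were chosen as lower in these libraries and most sums differed little between groups. This outcome was therefore close to fixed in advance and supports nothing. Relative to microglia markers, the mean log2 level was lower in SCI by a difference of -1.69 for Kctd13, -1.20 for Rasgrp3, -2.12 for Trim59 and -3.14 for Ranbp3l. Relative to endothelial markers the differences were -1.75, -1.26, -2.18 and -3.20 in the same order, and without division they were -1.71, -1.22, -2.14 and -3.16. A sum is ruled by its most abundant markers, so these ratios describe the lists and not single cells. For neutrophil and erythroid markers, whose own sums were higher in SCI, the differences were larger still, as division by a higher sum makes them.

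**Figure D5:**
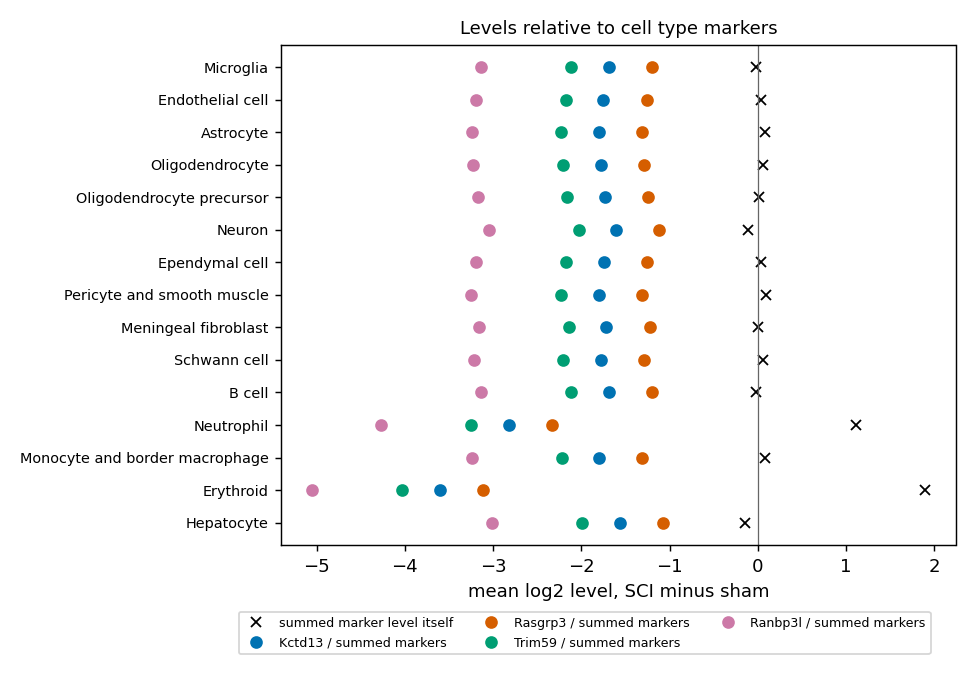
Mean log2 level in SCI minus sham for the summed markers of 15 cell types (crosses) and for each gene divided by that sum (circles). The crosses lie near 0 except for neutrophil (1.11) and erythroid markers (1.89), and all circles lie below -1.

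Genes of most similar pattern had smaller differences between the groups. The members were among the lowest log2 fold changes of all, and correlation ignores size, so this was close to fixed in advance. Over the 6 libraries, which include the group difference, the log2 level of Kctd13 was most like that of Xpo1, the main nuclear export receptor (Pearson r = 0.989 of log2(CPM + 0.5), among 10470 genes with a mean of at least 5 CPM). Xpo1 was at 32.9, 32.9 and 32.1 CPM in SCI against 36.2, 36.4 and 36.6 CPM in sham, a log2 fold change of -0.16 ± 0.17 that was not called (edgeR adjusted p = 0.924). Next for Kctd13 came 6430590A07Rik (r = 0.987, log2 fold change -0.84, not called by edgeR). After it came Zic1 (r = 0.984, log2 fold change -0.98), which was called lower by edgeR. Rasgrp3 was most like Arid2, a chromatin remodeller subunit gene (r = 0.993), and Trim59 most like Slmap (r = 0.995). Ranbp3l was most like Smc4, the neighbour of Trim59 (r = 0.987), with Xpo1 also close (r = 0.980). Arid2 and Slmap had log2 fold changes of -0.46 ± 0.19 and -0.47 ± 0.18, not called by edgeR (adjusted p = 0.546 and 0.493). A search over so many genes with 6 points finds high correlations readily, so these are descriptions with no p.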

How the data were processed

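RNA of 3 SCI and 3 sham spinal cords was sequenced near the 3′ end. The authors deposited 1 table of whole-number counts per library and Ensembl gene, not normalized. The series' design text names STAR 2.7.2b and mm10 with the mouse Ensembl annotation, and the submitters' processing notes also list DESeq2 1.24.0. No source used here names the counting tool, its strand setting or its treatment of multi-mapping reads, which leaves overlapping genes uncertain.

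Symbols matched 42462 of 43432 identifiers, and positions and transcripts came from GENCODE M21 (GRCm38). Genes passing edgeR's filterByExpr were scaled by TMM and tested with the robust quasi-likelihood F test (edgeR 4.0.16, R 4.3.3), SCI over sham, in all 6 libraries, with Benjamini-Hochberg adjustment over 13560 genes. Fold changes use a prior count of 0.125, and the SE is the absolute fold change on that scale over root F. The design text gives 3 mice per group, and libraries were treated as mice. No 2 libraries of a group agreed within sampling noise (chi-square per degree of freedom 6.97 to 38.0).

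The members and the 8 partner and 15 cell type lists were chosen with earlier results of these data known, and members were left out of the lists. Named genes were the called genes, the smallest p, the most abundant and the paralogs of each list. The nearest tested neighbours and the genes of most similar pattern were named too. Not every gene the rule names is given. Alternatives were RLE scaling, total counts, no filter, at least 1 CPM in 3 libraries, DESeq2 1.42.0, limma voom 3.58.1, a replicate block, a hepatocyte covariate and leaving out each library. The test was checked on simulated counts.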

Additional observations from a re-analysis of the deposited data

How the results depend on the processing

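With no filter on low counts 182 genes were higher and 42 lower, against 120 and 6 as reported, and with the hepatocyte covariate 15 were lower. Leaving out 1 library gave 62 to 132 higher and 1 to 14 lower genes, and between 1 and 4 of the 4 members called lower. Without SCI 1 the log2 fold changes of Trim59 and Ranbp3l were -2.65 and -3.42, against -1.90 and -2.99 as reported. These moves exceeded the pooled SD of log2(CPM + 0.5) within groups, 0.650 for Trim59 and 0.305 for Ranbp3l. Adding 0.5 CPM narrows that spread at levels as low as those of Ranbp3l, and the fold changes use a different prior count. Whether the moves exceed the spread on the scale of the fold changes was not tested. Over leave-one-out fits the log2 fold change of Trim59 ranged from -2.65 to -1.55 and that of Ranbp3l from -3.42 to -2.79. The causes were not tested. Trim59 was also not called with total counts (edgeR adjusted p = 0.0507) or limma voom (0.0573).

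With the replicate number as a block, 1 gene was called lower, and 1 of the 4 members, Ranbp3l (adjusted p = 0.0174). The others had an edgeR adjusted p of 0.0790 (Kctd13), 0.0734 (Rasgrp3) and 0.164 (Trim59). Libraries with the same number did not deviate together from their group means (correlations of -0.09, -0.07 and -0.18 over 13560 genes). With so few libraries these correlations cannot exclude a pairing. The labels do not say that the number pairs mice, so the block was used only as an alternative.

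Of genes near 0, the sign turned with the hepatocyte covariate for Rasgrp1 (0.0137), Sez6l2 (-0.0180) and Kpna4 (0.0059). Over leave-one-out fits, log2 fold changes ranged from -0.42 to 0.20 for Rasgrp1, -0.061 to 0.20 for Rasgrp2, -0.14 to 0.21 for Sez6l2, -0.15 to 0.037 for Kpna4, -0.33 to 0.22 for Gm21984, -0.043 to 0.13 for Ranbp3 and -0.068 to 0.30 for Tmem219. None of these genes was called by edgeR in any fit. Depth limits Ranbp3l most, with 14 counts over the SCI libraries.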
